A study of Mus musculus with 5 samples.

Results

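The respiratory chain subunits were taken as the genes whose symbols begin with Ndufa, Ndufb, Ndufc, Ndufs, Ndufv, Uqcr, Atp5 or Cox4 to Cox8, together with *Sdha*, *Sdhb*, *Sdhc* and *Sdhd*. Pseudogenes and assembly factors were left out. These names gave 82 of the 19938 genes measured, with 36 in complex I, 4 in complex II, 8 in complex III, 17 in complex IV and 17 in complex V. *Cox7c*, *Ndufb4* and *Ndufb4b* lay on probe sets that carry several symbols and are not analysed here. All 82 members entered the tests, since no filter on low values was applied.

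Expression was measured in 6DT1 cells, a highly metastatic mouse mammary carcinoma line, on 5 Affymetrix Mouse Gene 1.0 ST arrays with 1 array per line. The *Arid4b* knockdown cohort held lines H3 and H4, which carried lentiviral hairpins against *Arid4b* in the pLKO.1 vector. The control cohort held line H5, whose *Arid4b* hairpin left the protein at a normal level, the line with the scrambled hairpin in the same vector, and untransduced cells. H3, H4, H5 and the scrambled line were selected with puromycin and arrayed as pooled clones, while the untransduced cells were not selected. Each line was arrayed once, so that every p-value rests on the scatter among single arrays of different lines, which may be technical. Precision is limited by this number of arrays.

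The respiratory chain sits in the inner mitochondrial membrane. Complex I takes electrons from NADH and complex II takes them from succinate. Both pass them through ubiquinone to complex III, which hands them by way of cytochrome c to complex IV, where oxygen is reduced. Complexes I, III and IV pump protons, and complex V, the ATP synthase, lets protons flow back to make ATP. Most subunits are encoded in the nucleus and a few core ones in mitochondrial DNA. Many of the nuclear genes are known targets of the transcription factors NRF1, GABP and YY1.

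The promoters shown here belong to 6 of the 11 members that differed between the cohorts at the threshold used below. The 6 were picked by hand, and no RefSeq promoter sequence was found for *Cox4i1*, another of the 11. Each is the run of 250 bases before the RefSeq start site in mouse assembly GRCm38.p6, read 5′ to 3′ on the gene's own strand. Capitals mark CCGGAAG or its reverse complement CTTCCGG, a core sequence bound by ETS factors such as GABP, and the runs for *Uqcr10*, *Cox8a*, *Cox7a2l* and *Cox5b* hold no whole match.
*Uqcr10*, chr11:4704345-4704594, minus strand: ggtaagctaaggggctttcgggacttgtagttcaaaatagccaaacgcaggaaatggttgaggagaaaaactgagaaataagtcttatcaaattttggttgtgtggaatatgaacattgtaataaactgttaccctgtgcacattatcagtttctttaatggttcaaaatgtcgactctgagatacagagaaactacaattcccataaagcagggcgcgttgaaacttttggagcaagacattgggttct
*Uqcrh*, chr4:116075071-116075320, minus strand: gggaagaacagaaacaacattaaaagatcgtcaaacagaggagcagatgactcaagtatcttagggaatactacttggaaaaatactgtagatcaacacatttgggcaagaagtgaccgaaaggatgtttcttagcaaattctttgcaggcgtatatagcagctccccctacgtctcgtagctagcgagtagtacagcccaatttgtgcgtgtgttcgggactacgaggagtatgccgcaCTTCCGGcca
*Uqcr11*, chr10:80406822-80407071, minus strand: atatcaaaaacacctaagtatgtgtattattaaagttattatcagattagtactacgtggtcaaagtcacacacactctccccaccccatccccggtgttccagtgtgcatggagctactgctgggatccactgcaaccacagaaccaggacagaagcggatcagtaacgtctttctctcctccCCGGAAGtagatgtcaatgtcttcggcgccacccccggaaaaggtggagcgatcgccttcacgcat
*Cox8a*, chr19:7217617-7217866, minus strand: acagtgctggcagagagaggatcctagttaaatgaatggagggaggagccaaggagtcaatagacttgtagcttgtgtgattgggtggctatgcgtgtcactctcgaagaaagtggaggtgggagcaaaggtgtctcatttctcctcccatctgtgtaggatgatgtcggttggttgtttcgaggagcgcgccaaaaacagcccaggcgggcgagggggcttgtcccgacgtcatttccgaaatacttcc
*Cox7a2l*, chr17:83514334-83514583, minus strand: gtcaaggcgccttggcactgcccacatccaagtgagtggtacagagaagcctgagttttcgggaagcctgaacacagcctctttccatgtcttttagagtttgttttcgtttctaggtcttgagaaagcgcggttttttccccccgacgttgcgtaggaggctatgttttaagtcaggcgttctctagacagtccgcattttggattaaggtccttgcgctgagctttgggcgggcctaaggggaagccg
*Cox5b*, chr1:36691237-36691486, plus strand: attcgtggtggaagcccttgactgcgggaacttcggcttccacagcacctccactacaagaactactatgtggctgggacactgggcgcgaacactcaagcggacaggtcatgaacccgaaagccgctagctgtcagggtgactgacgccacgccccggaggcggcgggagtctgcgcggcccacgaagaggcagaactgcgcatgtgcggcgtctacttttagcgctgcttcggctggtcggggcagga

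RefSeq windows of 300 bases, from 250 before to 50 after the start site, were found for 67 of the 82 members, and some genes had more than 1. Both strands were searched for CCGGAAG, for the palindromic consensus of NRF1, which has 10 bases, and for the YY1 sequence AAGATGGCG, and no match to one overlapped a match to another. CCGGAAG was present for 17 members (25.4%), against 9.93% of all 27025 genes with a window. The NRF1 sequence was present for 5 members (7.46%, against 1.07%) and the YY1 sequence for 7 (10.4%, against 1.64%). Of the 10 members that differed and had a window, 4 held CCGGAAG and none held either of the other sequences. The match in *Uqcrh* began at position -10 relative to the start site and that in *Uqcr11* at -66. *Cox8a* had 1 match that began at -5 and crossed the start site, so that its first bases close the run shown and are not in capitals, and another wholly after the start. The match in *Atp5e* began at -102.

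*Arid4b* mRNA was lower in H3, at a log2 expression of 6.88, and in H4, at 7.35, than in any control line, whose mean was 8.31 ± 0.06 (SD, n = 3). The log2 difference between the cohorts was -1.20 (adjusted p = 0.217 from limma over all genes). Values on the H3 array were compressed relative to the other arrays, with an SD over probe sets of 2.25 against 2.29 to 2.30. Among all genes with a control mean of 10 or more, which hold 44 of the 82 members, the median difference from the control mean was -0.093 in H3 and -0.046 in H4, and among genes below 6 it was 0.094 in H3 and 0.0082 in H4. The epithelial markers *Krt8* and *Krt18* were between 11.57 and 12.26 in every line. *Epcam* lay between 5.61 and 5.75 and *Cdh1* between 6.05 and 6.16, and none of the 9 epithelial markers passed the threshold used below. Of 8 macrophage and leukocyte markers, *Cd68* and *Csf1r* were higher in the knockdown lines by the unadjusted threshold used below and 6 did not pass. The mean level of these markers was 6.48 to 6.49 in the knockdown lines and 6.27 to 6.33 in the control lines. Their largest log2 difference was 0.95 and their median 0.079, with 5 above and 3 below zero. *Ptprc* and *Adgre1*, which define leukocytes and macrophages, were at 4.98 to 5.15 and 4.53 to 4.70. None of the 7 fibroblast, 5 endothelial, 5 striated muscle and 4 adipocyte markers passed, and the fibroblast markers had a mean of 6.23 to 6.32 against 6.12 to 6.14. The part of these shifts in the results was not tested. In bulk RNA of this kind fewer cells of a type and less RNA per cell cannot be told apart.

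Most respiratory chain genes differed little between the knockdown and the control lines, with a log2 difference under 0.2 in size for 68 of 82 (82.9%), against 77.4% of all genes. Of the 82 members, 8 were higher in the knockdown lines and 3 were lower in limma at p under 0.05 without adjustment, as the study set it. That threshold took 4.34% of all genes as higher and 7.61% as lower. The members' shares of 9.76% and 3.66% were thus above and below those of all genes. All genes were not matched to the members in level. Without the lowest 1 in 3 genes, 7 of 80 members were higher and 2 were lower, against 4.54% and 11.3% of the genes kept. No member passed an adjusted p under 0.05 from limma, and among the 11 that differed it ran from 0.245 for *Uqcr10* to 0.41 for *Sdha*. Over all genes the share past the adjusted threshold was also 0%. H3 and H4 each exceeded every control line for 13 members (15.9%) and each lay below every control line for 7 (8.54%), positions held by 13.9% and 13.5% of all genes. The median log2 difference was 0.024 over the members and 0.033 over all genes. For 69 members (84.1%) the whole 95% interval of the difference lay within 0.5 of zero on the log2 scale, which held for 76.1% of all genes. The split into 8 higher and 3 lower depended on the scaling of the arrays. It was 4 and 5 after subtraction of the array medians, where 2.55% of all genes were higher and 10.2% were lower, and 12 and 2 after quantile normalization, under which 6.52% of all genes were higher and 6.68% were lower. *Uqcr10*, *Cox4i1*, *Cox8a* and *Cox5b* passed the unadjusted threshold with the same sign under all 13 alternatives tried.

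**Figure D1:**
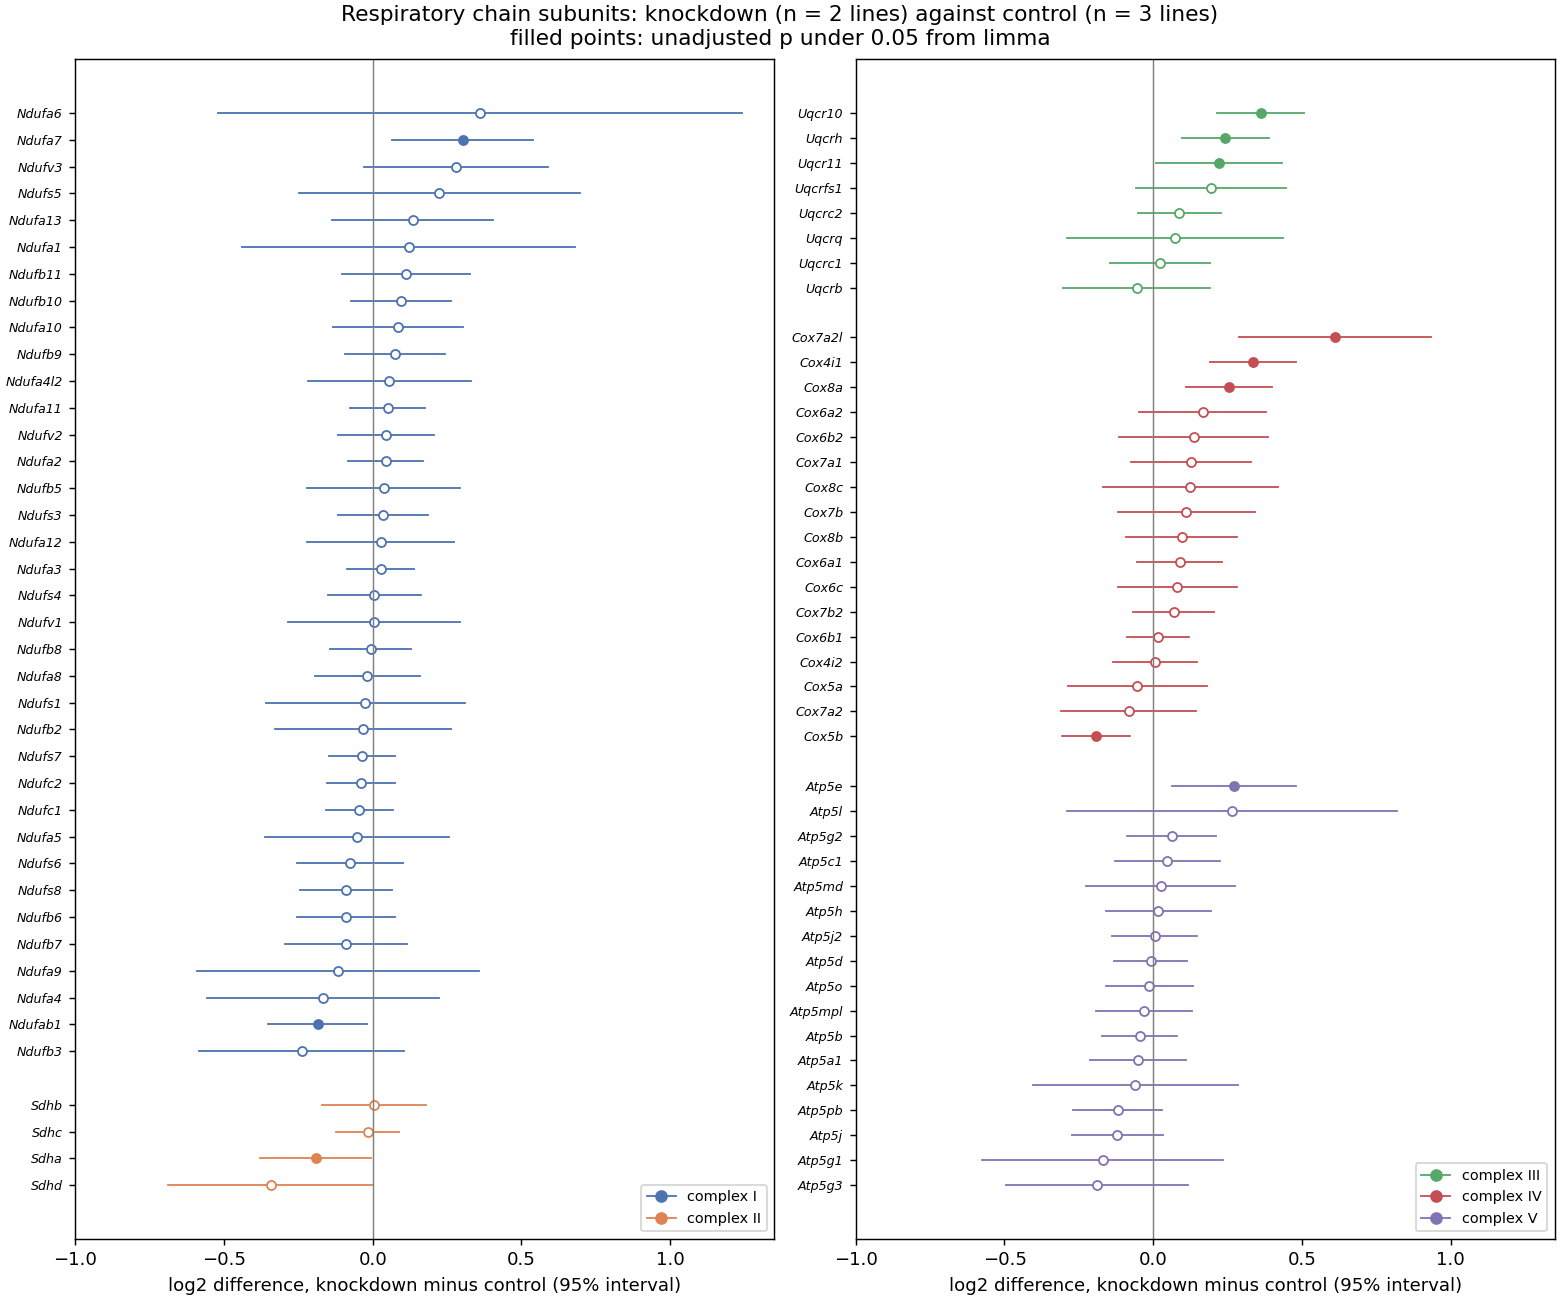
Log2 difference between the knockdown lines (n = 2) and the control lines (n = 3) on the horizontal axis for each of the 82 members, grouped by complex. Points are limma estimates, bars are 95% intervals, and filled points passed an unadjusted p under 0.05. Most intervals cross 0, and the filled points to the right are mainly in complexes III and IV, with *Cox7a2l* at 0.61.

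Few genes of complex I passed the threshold. Of its 36 members, *Ndufa7* was higher, *Ndufab1* was lower and 34 did not pass the unadjusted threshold, and the median log2 difference was 0.016. The share was 2.78% in each direction, against 4.34% (higher) and 7.61% (lower) of all genes. *Ndufa7* encodes an accessory subunit. On the log2 scale H3 had a level of 8.59 and H4 of 8.81, and the control lines H5, scrambled and untransduced had 8.42, 8.47 and 8.31. H3 and H4 each exceeded the control range, with a log2 difference of 0.30 ± 0.09 (SE). *Ndufab1* encodes the mitochondrial acyl carrier protein, which is a subunit of complex I and also serves lipoic acid synthesis. Levels were 9.26 (H3) and 9.38 (H4) under knockdown and 9.55, 9.44 and 9.52 in H5, the scrambled line and untransduced cells. Both knockdown lines lay below the control range. The difference was -0.18 ± 0.06 (SE). Of the 13 alternatives, *Ndufa7* passed under 7 and *Ndufab1* under 4. The *Ndufa7* call was lost when H4 (difference 0.19), H5 (0.31) or the untransduced line (0.26) was left out, and that of *Ndufab1* without H3 (-0.12), H5 (-0.16) or the untransduced line (-0.18).

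The nuclear-encoded core subunits of complex I, among them those that hold the flavin and the iron-sulfur clusters, differed by less than 0.1 on the log2 scale. The 6 that were measured, *Ndufs1*, *Ndufs3*, *Ndufs7*, *Ndufs8*, *Ndufv1* and *Ndufv2*, had log2 differences from -0.089 to 0.044, and none passed. *Ndufv1*, which binds NADH, was at 10.39 in H3 and 10.31 in H4 and between 10.19 and 10.52 in the control lines, so that the control lines enclosed both knockdown lines. *Ndufs4*, an accessory subunit, was at 9.86 and 9.94 against 9.85 to 9.97, with a 95% interval of the difference of -0.15 to 0.16. The 28 accessory subunits ranged from -0.24 (*Ndufb3*) to 0.36 (*Ndufa6*), with 16 above and 12 below zero. The widest spread within the control lines was in *Ndufa6*. It was at 8.60 in H5 and 8.76 in the scrambled line but 7.79 in untransduced cells, against 8.56 in H3 and 8.92 in H4. The control lines therefore lay on both sides of H3, and the interval of the *Ndufa6* difference ran from -0.52 to 1.24. *Ndufa4*, first described in complex I and now regarded as a subunit of complex IV, was at 9.92 in H3 and 10.21 in H4 and between 10.03 and 10.41 in the control lines. Its low-oxygen relative *Ndufa4l2* was at 6.43 in H3, 6.11 in H4 and 6.20 to 6.21 in the control lines. For neither of them did both knockdown lines lie on the same side of all control lines. The *Ndufa4l2* difference was 0.22 without H4 and -0.10 without H3.

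In complex II, which oxidizes succinate and is also an enzyme of the citric acid cycle, *Sdha* was lower and the other 3 members did not pass. At that threshold 7.61% of all genes were lower. *Sdha*, the flavoprotein, had levels of 11.35 (H3) and 11.43 (H4) under knockdown and of 11.58, 11.50 and 11.68 in H5, the scrambled line and untransduced cells. The cohorts did not overlap. Its log2 difference was -0.19 ± 0.07 (SE), and it passed under 5 of the 13 alternatives. The call was lost in each fit that left out H3 (-0.15), H4 (-0.23), H5 (-0.20) or the untransduced line (-0.15). *Sdhd*, a membrane anchor, had 10.73 in H3 and 10.36 in H4, while H5, the scrambled line and untransduced cells had 10.96, 10.78 and 10.92. Both knockdown lines lay below the control range. The difference of -0.34 ± 0.13 (SE) missed the threshold, with a 95% interval of -0.69 to 0.0021. It passed under 4 of the alternatives, without H3 (-0.53) among them. It did not pass without H4 (-0.16), H5 (-0.31), the scrambled line (-0.40) or the untransduced line (-0.32). The iron-sulfur subunit *Sdhb* and the other anchor *Sdhc* were flat. *Sdhb* was at 9.77 in H3 and 9.65 in H4 and between 9.67 and 9.78 in the control lines, and *Sdhc* was at 10.78 and 10.77 against 10.77 to 10.81. Their 95% intervals were -0.17 to 0.18 and -0.12 to 0.090.

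Complex III had the highest median of the 5 complexes, 0.14 on the log2 scale. Of its 8 members, *Uqcr10*, *Uqcrh* and *Uqcr11* were higher in the knockdown lines, none was lower and 5 did not pass. The share higher was 37.5%, against 4.34% of all genes. In 5 of the 8 (62.5%) H3 and H4 each exceeded every control line, and in none did both lie below the controls. These positions were held by 13.9% and 13.5% of all genes. All 3 of the genes that passed encode small subunits without redox centres. *Uqcr10* had levels of 9.40 (H3) and 9.51 (H4) under knockdown and of 9.11 (H5), 9.12 (scrambled) and 9.05 (untransduced) among the controls. The gap between the cohorts was wider than the range within either of them. The log2 difference of 0.36 ± 0.06 (SE) amounts to 28.5% more signal. *Uqcrh*, the hinge protein that helps cytochrome c to dock, was at 10.88 and 10.99 in the knockdown lines and at 10.65, 10.72 and 10.71 in the control lines. Its difference was 0.24 ± 0.06 (SE), and it passed under every alternative other than subtraction of the array medians (0.20). *Uqcr11* had levels of 9.54 (H3) and 9.68 (H4), compared with control levels of 9.42, 9.46 and 9.28, so that the cohorts did not overlap. The difference was 0.22 ± 0.08 (SE), and it passed under only 3 of the 13 alternatives. The call was lost without H3 (0.29), H4 (0.15), H5 (0.24) or the untransduced line (0.17).

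The catalytic and core genes of complex III had smaller differences than *Uqcr10* and *Uqcrh*. *Uqcrfs1*, the Rieske iron-sulfur protein, and the core proteins *Uqcrc1* and *Uqcrc2* had log2 differences from 0.023 to 0.19, and none passed. Both knockdown lines exceeded every control line for *Uqcrfs1* (8.92 and 9.09 against 8.67 to 8.90) and *Uqcrc2* (11.69 and 11.70 against 11.56 to 11.67). *Uqcrc1* was at 11.15 in H3 and 11.11 in H4, inside the control range of 11.04 to 11.20. Of the small subunits that did not pass, *Uqcrq* was at 8.84 in H3 and 8.94 in H4 against 8.69 to 9.07. *Uqcrb* was at 11.38 in H3 and 11.60 in H4 against 11.48 to 11.64. It was the only member of the complex with a negative difference (-0.055). *Cyc1*, the cytochrome of complex III, which the symbol rule does not take, had a difference of -0.18 and an interval of -0.57 to 0.21.

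In complex IV, cytochrome c oxidase, *Cox7a2l*, *Cox4i1* and *Cox8a* were higher, *Cox5b* was lower and 13 members did not pass. The shares were 17.6% higher and 5.88% lower, against 4.34% and 7.61% of all genes. *Cox7a2l* had the largest difference of the 82 members. It encodes a protein related to the Cox7a subunits that joins complexes III and IV into supercomplexes. *Cox7a2l* had a level of 8.81 in H3 and 8.82 in H4, whereas the control lines had 8.27 (H5), 8.36 (scrambled) and 7.99 (untransduced). The difference was 0.61 ± 0.12 (SE, 95% interval 0.29 to 0.94), or 52.9% more signal, and the other probe set of this gene gave 0.51. Within the control lines the range was 0.37, with the untransduced cells lowest, and the difference was 0.50 without them. The call was lost when H3 or H4 was left out, although the differences were then 0.62 and 0.60.

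*Cox4i1*, the common isoform of the largest nuclear-encoded subunit, had 10.95 in H3 and 11.06 in H4, while H5, the scrambled line and untransduced cells had 10.64, 10.71 and 10.66. Its difference was 0.33 ± 0.05 (SE). *Cox8a*, the smallest subunit, was at 11.65 and 11.68 against 11.40, 11.48 and 11.35, with a difference of 0.25 ± 0.06 (SE). For both genes H3 and H4 each exceeded every control line. *Cox5b*, a zinc-binding subunit on the matrix side, went the other way. It was at 11.41 in each knockdown line and at 11.62, 11.57 and 11.63 in the control lines, a difference of -0.19 ± 0.04 (SE) or -12.5% in signal. The other probe set of *Cox5b* gave -0.22. The remaining common subunits, *Cox5a*, *Cox6a1*, *Cox6b1*, *Cox6c*, *Cox7a2* and *Cox7b*, had differences from -0.082 to 0.11. *Cox6b1* was at 11.03 in H3 and 11.04 in H4 and averaged 11.02 ± 0.02 (SD) in the control lines. *Cox6a1* was at 10.52 and 10.65 against 10.49 to 10.51, and *Cox7a2* at 10.62 and 10.57 against 10.58 to 10.82.

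**Figure D2:**
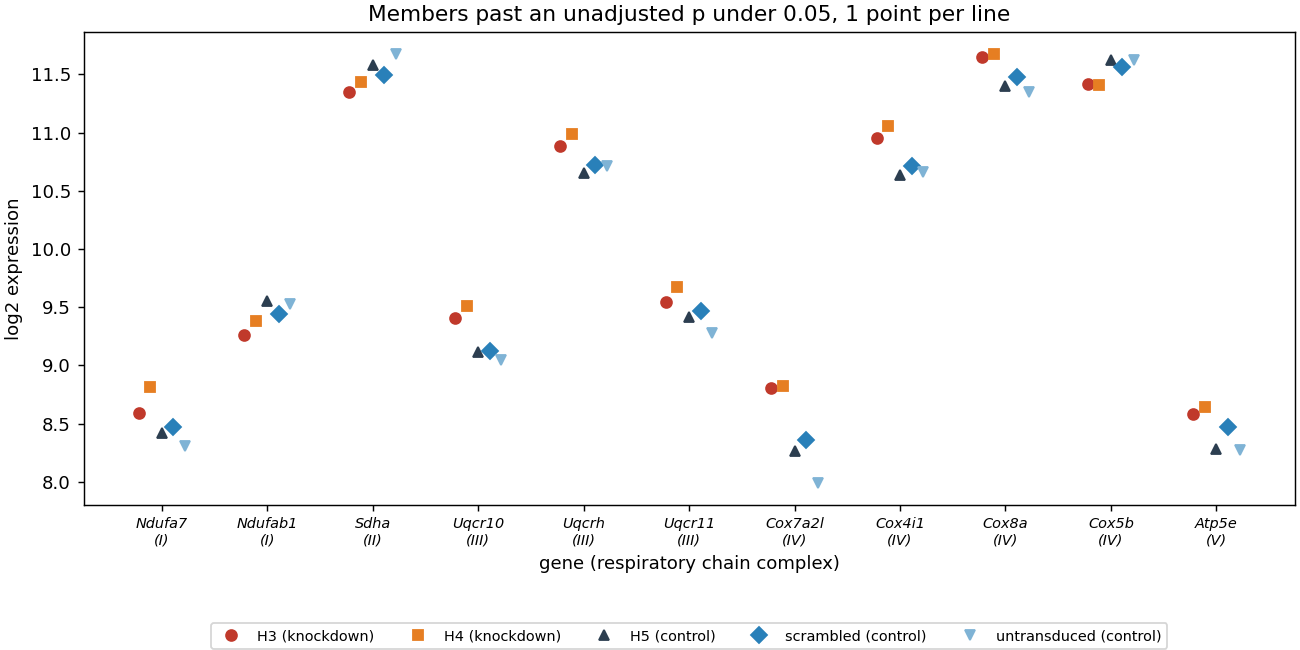
Log2 expression (vertical axis) of the 11 members past the unadjusted threshold, with 1 point per line. H3 and H4 exceed the control lines for 8 genes, such as *Cox7a2l* at 8.81 and 8.82, and lie below them for *Ndufab1*, *Sdha* and *Cox5b*.

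None of the tissue isoforms of complex IV passed the threshold. *Cox6a2*, *Cox7a1* and *Cox8b* are the heart and muscle forms, *Cox6b2*, *Cox7b2* and *Cox8c* are forms known from testis, and *Cox4i2* is the lung and low-oxygen form. The 7 genes lay between 4.40 and 7.46 on the log2 scale in the 5 lines. In 6 of the 7 H3 was the highest line, while H4 lay within or near the control range. *Cox8c* was at 7.21 in H3, 6.87 in H4 and 6.88 to 6.95 in the control lines. *Cox6b2* was at 6.20, 5.92 and 5.90 to 5.96, *Cox6a2* at 7.46, 7.24 and 7.15 to 7.24, *Cox8b* at 6.11, 5.92 and 5.90 to 5.94, and *Cox4i2* at 6.99, 6.89 and 6.90 to 6.98, in the same order. *Cox7a1* was the exception, with 6.54 in H3, 6.65 in H4 and 6.37 to 6.56 in the control lines. On the compressed H3 array the median difference over all genes with a control mean from 6 to 8 was 0.11. That is the range of *Cox4i2*, *Cox6a2*, *Cox7a1* and *Cox8c*. For genes below 6, the range of the other 3, it was 0.094. The part of the compression in the H3 values of these isoforms was not tested. Without H4, which leaves H3 as the only knockdown line, the difference was 0.27 for *Cox6a2*, 0.28 for *Cox6b2*, 0.19 for *Cox8b* and 0.30 for *Cox8c*.

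In complex V all intervals other than that of *Atp5e* included 0. Of its 17 members *Atp5e* was higher, none was lower and 16 did not pass, and the median log2 difference was -0.013. The share higher was 5.88%, against 4.34% of all genes, of which 7.61% were lower. *Atp5e*, the epsilon subunit of the central stalk, had levels of 8.58 (H3) and 8.64 (H4) under knockdown and of 8.28, 8.47 and 8.27 in H5, the scrambled line and untransduced cells. H3 and H4 exceeded every control line, and the gene passed under 5 of the 13 alternatives. The difference was 0.27 ± 0.08 (SE), and the call was lost without H3 (0.30), H4 (0.24), H5 (0.24) or the untransduced line (0.24). The other 4 genes of the catalytic head and central stalk, *Atp5a1*, *Atp5b*, *Atp5c1* and *Atp5d*, had differences from -0.051 to 0.047. *Atp5d* was at 12.61 and 12.62 against 12.58 to 12.66. In the peripheral stalk, *Atp5o*, *Atp5pb*, *Atp5h* and *Atp5j* ranged from -0.12 to 0.017. Both knockdown lines lay below all control lines for *Atp5j* (11.35 and 11.31 against 11.41 to 11.53) and for *Atp5pb* (10.75 and 10.86 against 10.87 to 10.95), and neither passed. In the other probe set of *Atp5pb* the scrambled line, at 10.21, lay below H3 (10.30) and H4 (10.24). The proton-carrying c ring is encoded by 3 genes for the same mature protein. *Atp5g1* averaged 11.02 in the knockdown lines against 10.97 to 11.45 in the control lines, *Atp5g3* was at 11.36 and 11.28 against 11.34 to 11.69, and *Atp5g2* at 11.68 and 11.78 against 11.61 to 11.70. For *Atp5g1* and *Atp5g3* the untransduced cells were the highest line. Among the small membrane subunits, *Atp5j2* was at 10.57 and 10.51 against 10.49 to 10.60, with a difference of 0.0056. *Atp5l* was at 9.38 in H4 but 8.71 in H3, against 8.73 to 8.86 in the control lines, and all 6 of its probe sets had H4 highest and gave differences from 0.21 to 0.27.

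The lines H3 and H4 were not alike in all complexes. H4 lay above H3 in 25 of the 36 genes of complex I and in 8 of the 17 of complex IV, and in 53 of all 82 members (64.6%), against 36.7% of all genes. The share of all genes varied with their level, in step with the compression of the H3 array. Among genes with a control mean of 8 to 10, H4 lay above H3 in 63.8% of all genes and in 18 of 24 members, and at 10 or more in 58.9% and in 29 of 44. The median difference from the control mean was -0.030 in H3 and 0.043 in H4 for complex I, 0.097 and 0.20 for complex III, 0.076 and 0.041 for complex IV, and -0.070 and 0.0018 for complex V. In complex II the medians were -0.085 and -0.10, so that H4 lay below H3 there and in complex IV. Both lines lay on the same side of the control mean for 52 of the 82 members (63.4%), against 67.4% of all genes. These shares rest on a control mean that both differences have in common. A difference between single arrays has no replicate check. In 19 members (23.2%) H4 was the highest and the untransduced cells the lowest of the 5 lines, an order found in 6.69% of all genes. At a control mean of 8 to 10 it was found in 10 of 24 members and 10.9% of all genes, and at 10 or more in 8 of 44 and 9.17%. The 19 were *Ndufa6*, *Cox7a2l*, *Ndufs5*, *Ndufa1*, *Ndufv3*, *Ndufa7*, *Uqcr10*, *Uqcrfs1*, *Uqcr11*, *Atp5e*, *Ndufa13*, *Cox8a*, *Ndufb5*, *Cox6c*, *Atp5g2*, *Ndufv2*, *Uqcrc2*, *Ndufa3* and *Cox6b1*. The distance from H4 to the untransduced cells ran from 0.039 in *Cox6b1* to 1.13 in *Ndufa6*. This order was looked for after the values had been seen.

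**Figure D3:**
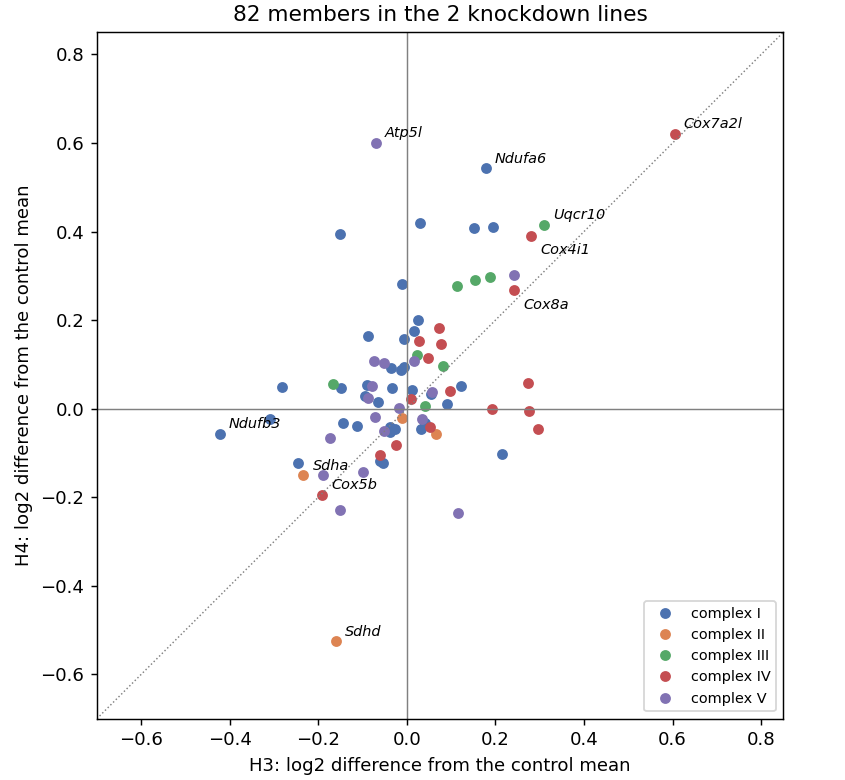
Log2 difference of H3 (horizontal axis) and of H4 (vertical axis) from the mean of the 3 control lines for the 82 members, coloured by complex. The dotted line marks equal values. *Cox7a2l* lies close to it at 0.60 and 0.62, *Atp5l* and *Ndufa6* lie above it, and *Sdhd* lies below it at -0.16 and -0.53.

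Genes that build and regulate the chain were compared in the same fit. Of 45 assembly factors 3 were higher (6.67%) and 4 were lower (8.89%), and the median was -0.064. Of all genes 4.34% were higher and 7.61% were lower. *Coa7*, a factor for complex IV, had the largest difference, -0.74 ± 0.20 (SE), with 8.20 in H3 and 8.37 in H4, while H5, the scrambled line and untransduced cells had 8.98, 8.73 and 9.36. *Atpaf1*, a chaperone of the catalytic head of complex V, was at 9.04 and 8.93 against 9.53, 9.29 and 9.43, and *Sdhaf3* of complex II was higher, at 8.05 and 8.51 against 7.79 to 7.85. *Coa7* did not pass without H3, H4 or H5, where its difference was -0.65, -0.83 and -0.76. *Atpaf1* did not pass without H4 (-0.38) and *Sdhaf3* without any 1 of the control lines (0.44 to 0.48). Of the subunits encoded in mitochondrial DNA, 2 were measured. *COX2* (mt-Co2) was higher, at 12.15 and 12.19 against 11.95, 12.05 and 11.82, and it did not pass when H3, H4, H5 or the untransduced line was left out (0.17 to 0.25). *ND3* (mt-Nd3) did not pass, at 11.76 and 11.86 against 11.53 to 11.81.

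Among 21 genes for the upkeep and transcription of mitochondrial DNA, *Twnk* was higher, *Tfam* and *Mterf3* were lower and 18 did not pass. The shares were 4.76% higher and 9.52% lower, against 4.34% and 7.61% of all genes. *Tfam*, which packages and transcribes mitochondrial DNA, was at 7.84 in H3 and 8.27 in H4, with 8.42, 8.53 and 8.48 in the controls. *Twnk*, the helicase, was at 7.97 and 8.14 against 7.79 to 7.87, and *Mterf3* at 8.12 and 8.30 against 8.40 to 8.62. Leaving out any 1 control line ended the *Tfam* call, at -0.40 to -0.45, and leaving out H3 or H4 moved its difference to -0.21 and -0.64. The *Twnk* call was lost without H4, H5, the scrambled line or the untransduced line (0.13 to 0.23), and that of *Mterf3* without H3, H5 or the untransduced line (-0.23 to -0.30).

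Of 21 regulators of mitochondrial biogenesis 3 were higher (14.3%, against 4.34% of all genes) and 5 were lower (23.8%, against 7.61%). Their median was -0.0046. *Sirt1*, a deacetylase that acts on the coactivator PGC-1alpha, was at 7.68 in H3 and 7.78 in H4, with 8.83, 8.52 and 8.96 in the controls. Its difference of -1.04 ± 0.15 (SE) passed under all 13 alternatives. *Gabpb2*, a partner subunit of GABP, was at 8.21 and 8.05 against 8.54 to 8.92, and *Creb1* at 9.07 and 9.06 against 9.39 to 9.84. The other members that passed were *Nrf1* (-0.52) and *Sp1* (-0.24), which were lower, and *Myc* (0.35), *Ppard* (0.33) and *Esrra* (0.26), which were higher. *Ppargc1a*, the gene of PGC-1alpha, was listed at 4.88 to 5.01 in all lines. *Gabpa* (8.96 and 9.15 against 9.23 to 9.46), *Gabpb1* (8.39 and 8.32 against 8.53 to 9.02) and *Yy1* (9.98 and 10.30 against 10.20 to 10.29) did not pass. Both knockdown lines lay below all control lines for 7 of the 21 regulators (33.3%) and above them for 4 (19%). The shares of all genes were 13.5% and 13.9%. *Gabpb2* did not pass without H4 (-0.52), nor *Creb1* without H3 or H4 (-0.54 and -0.53). *Nrf1* passed without the scrambled line (-0.66) but not when any other line was left out (-0.38 to -0.57), *Myc* did not pass without H4, H5 or the untransduced line (0.22 to 0.32), and *Esrra* did not pass without H3 (0.24).

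Of 77 mitochondrial ribosomal protein genes 3 were higher (3.9%) and 10 were lower (13%, against 7.61% of all genes), with a median of -0.069. Their median difference from the control mean was -0.14 in H3 and -0.027 in H4, and all genes with a control mean from 8 to 10 had -0.12 and -0.016. The part of the H3 array in this count was not tested. *Mrps33* was lower under all 13 alternatives, at 9.49 in H3 and 9.12 in H4 against 10.24, 10.19 and 10.06, a difference of -0.86 ± 0.13 (SE). *Mrpl18* was at 8.51 and 9.07 against 9.38 to 9.59, and *Mrpl47* at 6.55 and 6.61 against 6.90 to 7.24. The split of higher to lower was 0 to 11 after subtraction of the array medians and 6 to 6 after quantile normalization, and the count of lower genes was 5 without H5, 6 without the untransduced line and 16 without H4. Of all genes, 10.2% were lower after median subtraction, 6.68% after quantile normalization, 3.89% without H5, 5.07% without the untransduced line and 9.96% without H4. *Mrpl18* did not pass without H5 (-0.69), nor *Mrpl47* without H3 or H4 (-0.43 and -0.49).

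Of 26 genes of the citric acid cycle and electron entry *Etfb* was higher, *Idh3a* was lower and 24 did not pass. That was 3.85% in each direction, against 4.34% (higher) and 7.61% (lower) of all genes. *Cs*, citrate synthase, a common marker of mitochondrial content, was at 11.19 in H3 and 11.18 in H4 and at 11.19 to 11.26 in the control lines. *Idh3a* was at 10.30 and 10.40 against 10.49 to 10.77, and *Etfb* at 10.65 and 10.80 against 10.51 to 10.60. Of 24 genes of protein import *Tomm7* was higher, at 9.58 and 9.84 against 9.30 to 9.46. *Timm44* was lower, at 8.11 and 8.16 against 8.23 to 8.29, so that each direction held 4.17% of the import genes. The *Idh3a* call was lost without any 1 line other than the scrambled (-0.26 to -0.37), that of *Etfb* without any other than H3 (0.11 to 0.21), that of *Tomm7* without H4, H5 or the untransduced line (0.21 to 0.33), and that of *Timm44* without any other than H4 (-0.098 to -0.13). No gene of these lists passed an adjusted p under 0.05 from limma.

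**Figure D4:**
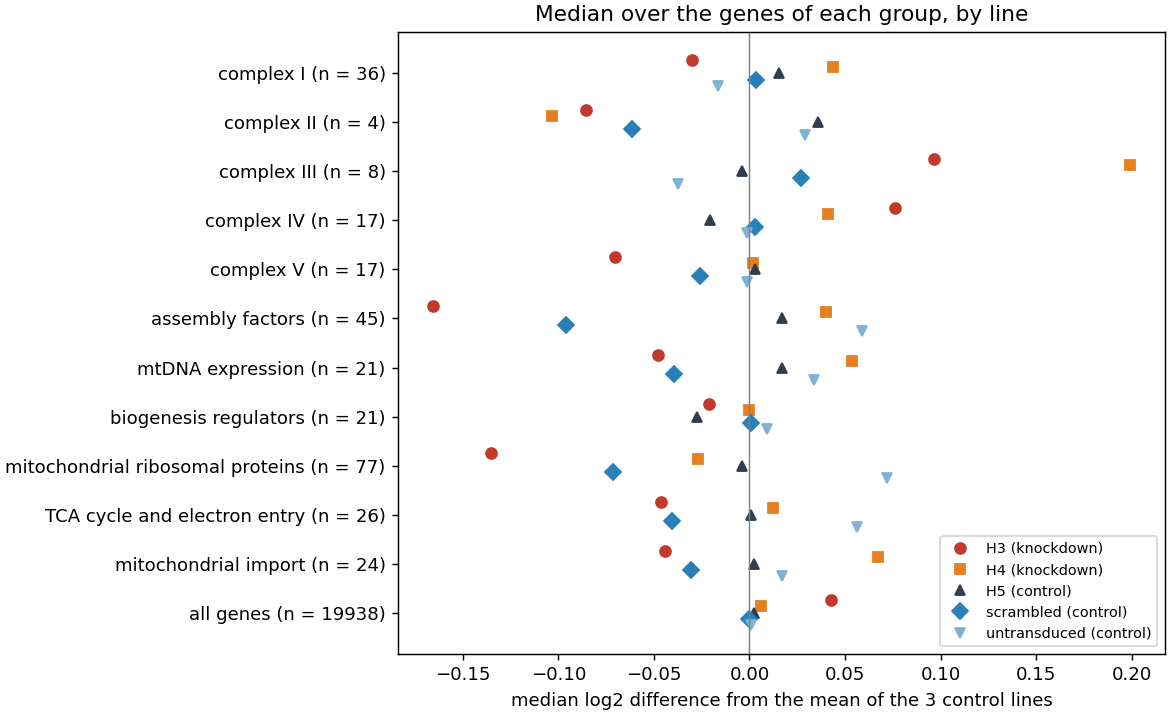
Median log2 difference from the mean of the 3 control lines (horizontal axis) for each complex, for the groups of related mitochondrial genes and for all genes, with 1 point per line. Complex III lies to the right in both knockdown lines, at 0.097 in H3 and 0.20 in H4, and complex II to the left, at -0.085 and -0.10.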

How the data were processed

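Expression in 5 lines of 6DT1 cells was measured on 5 arrays. The deposited values are on the log2 scale. The authors' processing notes name Partek and RMA, a method that corrects background, applies quantile normalization and summarises probes into probe sets. No version of either is given in the sources used here. RMA compresses differences of dim probe sets, and the level of one probe set cannot be set against that of another.

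The table held 35556 probe sets. Through the platform annotation, 21789 had 1 gene symbol, 1621 had several and were left out, and the rest were unnamed. For each of 19938 genes the probe set brightest on average across the arrays stood for the gene, without a filter on low values. Of the 82 members, 17 had more than 1 probe set, and in none did the signs of their differences disagree.

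Lines H3 and H4 were compared with H5, the scrambled line and untransduced cells in limma 3.58.1 under R 4.3.3, with moderated variances (residual df 3, prior df 1.58) and Benjamini-Hochberg adjustment over 19938 genes. The cohorts and the unadjusted threshold of 0.05 follow the study. The members and lists were chosen with earlier results of these data known, so the counts are descriptions. The lists were assembly factors (those of complex II among them), mitochondrially encoded subunits, genes of mitochondrial DNA expression, biogenesis regulators, mitochondrial ribosomal proteins, genes of the citric acid cycle and electron entry, protein import, and markers of other cell types. By rule, values in each line were given in each complex for up to 4 members with the largest differences in each direction past the threshold, the 2 with the smallest differences, all of complex II and the tissue isoforms with their common counterparts, and in each list for up to 3 genes past the threshold. Other named genes were chosen after their values were seen. Bars and errors are limma standard errors and 95% intervals.

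The 13 alternatives were an unmoderated test, limma's trend and robust options, subtraction of array medians, quantile normalization, removal of the lowest 1 in 3 genes, the mean over probe sets, array weights, a puromycin covariate, and the omission of each line in turn. Without H3 or H4, the remaining knockdown line was assumed to vary like the controls. Promoters came from RefSeq (GRCm38.p6). Tables were made in Python 3.11.15 with pandas 2.3.3 and numpy 2.4.6, and plots in matplotlib 3.10.9.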

Additional observations from a re-analysis of the deposited data

How the results depend on the processing

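With 1 array per line, 5 arrays and 3 residual degrees of freedom, the typical 95% interval of a member reached 0.18 on either side of its estimate on the log2 scale. No paired analysis was possible because the labels give the cohorts no shared replicate numbers. No member that passed in the comparison described above passed with the opposite sign under any of the 13 alternatives. *Atp5h* and *Ndufa4l2*, which did not pass there, passed with opposite signs without H3 and without H4. The *Atp5h* difference was 0.11 without H3 and -0.074 without H4, and that of *Ndufa4l2* was -0.10 without H3 and 0.22 without H4. Each of these fits leaves a single knockdown array. The members' median of 0.024 became -0.021 after subtraction of array medians, 0.058 after quantile normalization and 0.020 without the lowest 1 in 3 genes, and ran from -0.0064 to 0.039 when single lines were left out. The cause of these shifts was not tested.

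Over all members, the count of higher genes was 5 in the unmoderated test and 4 after subtraction of array medians, and ran from 5 to 11 with single lines left out. The share of all genes moved too, to 2.94% in the unmoderated test, 2.55% after median subtraction, 2.05% without H5 (5 members), 6.87% without H3 (11 members) and 24.6% without H4. Without H4 the 9 higher members (11%) were thus below the share of all genes, the opposite of the order with all 5 lines. In that fit 1266 genes passed an adjusted p under 0.05 from limma, *Ndufa4l2* (0.0486) being the only member among them. The count of lower genes was 1 in the unmoderated test, with array weights and with the puromycin covariate, and 5 after median subtraction. Of all genes, 4.19%, 4.54%, 5.07% and 10.2% were lower in these fits, in that order. With single control lines left out the count ran from 1 to 4, against 3.89% to 8% of all genes. The puromycin covariate gives the same estimate as leaving out the untransduced line, which alone was unselected.

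In complex I, the higher count was 0 in the unmoderated test, after median subtraction and with the puromycin covariate, and 3 after quantile normalization. Of all genes, 2.94%, 2.55%, 2.55% and 6.52% were higher in these fits, in that order. The lower count was 0 in the unmoderated test, with trend and robust options, after quantile normalization and without the lowest 1 in 3 genes. It was also 0 with array weights and with the covariate. Of all genes, 4.19% to 11.3% were lower in those fits. Each count ran from 0 to 1 with single control lines left out, where 2.05% to 3.52% of all genes were higher and 3.89% to 8% lower. The median was -0.029 after median subtraction and 0.071 after quantile normalization, and ran from -0.030 to 0.043 with any single line left out. In complex II the lower count was 0 in the unmoderated test, with array weights and with the covariate. There 4.19% to 5.07% of all genes were lower. It was 2 with trend and robust options (7.37% of all genes) and after median subtraction (10.2%), and 0 to 1 with single control lines left out.

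In complex III the higher count was 1 after median subtraction, where 2.55% of all genes were higher. Its median was 0.096 after median subtraction and 0.22 after quantile normalization, and ran from 0.097 to 0.20 with single lines left out. In complex IV the higher count ran from 3 to 6 with single lines left out. The 6 came from the fit without H4, where 24.6% of all genes were higher, against 4.34% with all 5 lines. The median of complex IV was 0.050 after median subtraction and ran from 0.041 to 0.12 with single lines left out. In complex V the higher count was 0 in the unmoderated test, after median subtraction, with array weights and with the covariate. In those fits 1.92% to 2.94% of all genes were higher. The lower count was 1 after median subtraction, where 10.2% of all genes were lower. Each count ran from 0 to 1 with single control lines left out. The median of complex V was -0.058 after median subtraction and 0.014 after quantile normalization, and ran from -0.070 to 0.0018 with any single line left out.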
